A study of Mus musculus with 12 samples.

Results

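The genes described here are Ncl, Npm1, Nolc1, Fbl, Nop56, Nop58, Nop2, Ubtf, Polr1a and Polr1b, which code for nucleolar proteins and for the RNA polymerase I machinery. They were chosen by name, 10 of 21887 protein-coding genes of the RefSeq table. S9.6 peaks were assigned to a gene when they overlapped its body with 1 kb on both sides. S9.6 is an antibody against RNA-DNA hybrids, the paired part of an R-loop, in which RNA displaces the second DNA strand. The series holds 12 libraries in 6 groups of 2: the S9.6 immunoprecipitate, the same with RNase H1 (an enzyme that removes the RNA of a hybrid) and the input DNA, each from wild-type HEPA1-6 (mouse hepatoma cells kept as a line) and wild-type liver of C57/Bl6 mice. The labels give the cell type as hepatocyte in both sources and no treatment of cells or mice. The values come from 1 list of peaks per source, named by the submitters as a merged immunoprecipitate against an input. Replicate spread is thus unknown, no difference is tested, and the RNase H1 libraries were not analysed here.

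The nucleolus is where RNA polymerase I transcribes ribosomal DNA and where ribosomal RNA is cut, modified and assembled into ribosomal subunits. Fbl, Nop56 and Nop58 are core proteins of box C/D small nucleolar ribonucleoproteins, which guide 2′-O-methylation of ribosomal RNA, and the genes of Nop56 and Nop58 carry small nucleolar RNAs (snoRNAs) in introns. The genes themselves are transcribed by RNA polymerase II, and the peaks described here lie on them, not on ribosomal DNA. Cells that grow and divide make more ribosomes, and these genes are known to be active in them.

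The HEPA1-6 list held 28717 peaks with a median width of 1091 bp, and the liver list 14908 peaks with a median width of 881 bp. The submitters' score has no stated scale, so each peak is given by its score and by its rank within its own list, as a percent of the list counted from the highest score down. The depth of the libraries is unknown, and a gene without a listed peak can hold one below the threshold. A few marker genes did not tell the liver list from the HEPA1-6 list. Of 6 genes of differentiated hepatocytes (Alb, Apoa1, Ttr, Otc, Cps1 and Pck1), Alb held a peak in each list and the other 5 in neither, whereas the proliferation genes Mki67, Top2a, Cdk1 and Plk1 held a peak in both. Over all protein-coding genes, 27.8% held a peak in both lists, and expression was not measured here. The name liver list is used below after its label only. What part the likeness of the lists at these marker genes has in the results was not tested.

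All 10 genes held a peak in both lists. Over all protein-coding genes, the share with a peak was 42.0% for HEPA1-6, 29.7% for the liver list and 27.8% for both at once. Among the 13322 genes between 4947 and 70383 bp long, the range of the 10 genes, the shares were 48.3% and 33.1%. In sum 30 HEPA1-6 peaks and 22 liver-list peaks lay at these genes. With peaks left out that lie within 1 kb of another protein-coding gene, 7 genes kept a HEPA1-6 peak (not Fbl, Nop56 and Nop2) and 8 a liver-list peak (not Nop56 and Nop2). The shares over all protein-coding genes were not computed with this filter, so those above are no baseline for it. The best-ranked peak per gene had a median rank of 3.84% in HEPA1-6 and 9.42% in the liver list, against 20.5% and 31.3% over all protein-coding genes with a peak. With as many HEPA1-6 peaks as the liver list holds, the highest-scoring ones, the HEPA1-6 median was 7.39%, since the same best peaks stand in a shorter list. The median over all genes was not computed for that list, so 20.5% is no baseline for it. The genes differed: Ncl, Npm1, Nop56 and Ubtf carried wide peaks whose best ranks were 6.03% or less in both lists, while Polr1a and Polr1b carried scattered, low-ranked peaks, above all in the liver list. Without the lower-scoring 50% of each list, Polr1a and Polr1b had no liver-list peak, and the other 8 genes kept one in both lists. All-gene shares were not computed for this cut either.

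**Figure D1:**
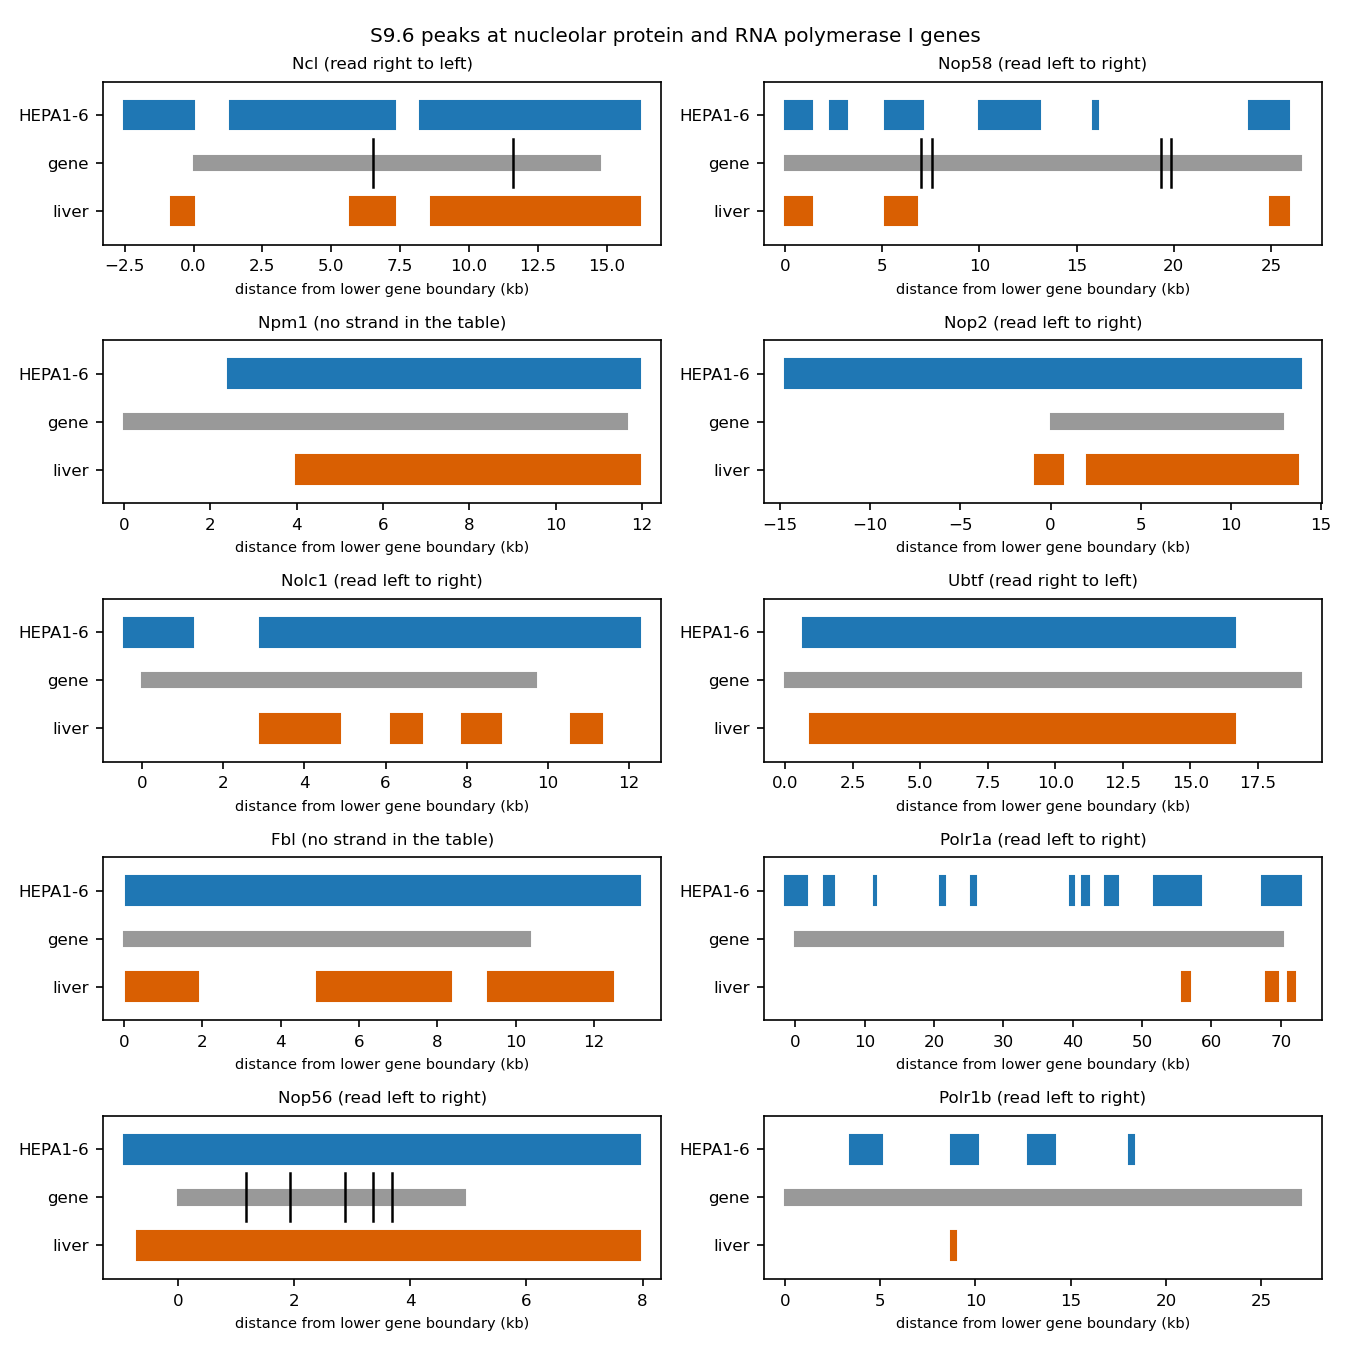
Position of S9.6 peaks at each of the 10 genes, with the distance from the lower-coordinate gene boundary in kb on the horizontal axis. The grey bar is the RefSeq gene body, blue and orange bars are HEPA1-6 and liver-list peaks, black ticks are nested snoRNA genes, and panel titles give the RefSeq reading direction; each liver-list peak lies within a HEPA1-6 peak.

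To show what DNA lies in front of these genes, the 250 bases before the RefSeq start are printed for 4 of them (RefSeq, GRCm38.p6, 5′ to 3′ along the gene, CpG dinucleotides in capitals). The starts are those listed with the promoter windows, and that of Polr1b lies inside its outermost gene boundary. At Ncl and Nop2 both lists had a peak over the promoter window, at Polr1a only HEPA1-6, and at Polr1b neither list. The HEPA1-6 peaks at Nop2 and Polr1a also lay over other protein-coding genes. Of all RefSeq promoter windows, 15.3% lay under a HEPA1-6 peak and 9.85% under a liver-list peak.
Ncl, chr1:86359456-86359705, minus strand: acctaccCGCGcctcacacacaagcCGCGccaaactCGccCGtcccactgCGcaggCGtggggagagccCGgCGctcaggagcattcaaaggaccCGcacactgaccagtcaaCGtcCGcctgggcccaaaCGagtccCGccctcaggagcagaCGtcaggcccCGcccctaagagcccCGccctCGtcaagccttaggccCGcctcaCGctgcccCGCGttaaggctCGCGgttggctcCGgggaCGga
Nop2, chr6:125131633-125131882, plus strand: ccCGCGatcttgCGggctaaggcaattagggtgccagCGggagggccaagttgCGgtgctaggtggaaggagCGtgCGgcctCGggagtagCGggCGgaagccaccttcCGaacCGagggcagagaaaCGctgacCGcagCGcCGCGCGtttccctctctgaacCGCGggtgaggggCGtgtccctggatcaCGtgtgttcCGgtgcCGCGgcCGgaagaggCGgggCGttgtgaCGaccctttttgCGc
Polr1a, chr6:71908803-71909052, plus strand: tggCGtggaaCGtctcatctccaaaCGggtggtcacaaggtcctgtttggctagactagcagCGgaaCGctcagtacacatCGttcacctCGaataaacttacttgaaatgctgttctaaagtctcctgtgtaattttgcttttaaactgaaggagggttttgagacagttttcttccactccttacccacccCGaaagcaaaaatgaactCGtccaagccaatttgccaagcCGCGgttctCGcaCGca
Polr1b, chr2:129100746-129100995, plus strand: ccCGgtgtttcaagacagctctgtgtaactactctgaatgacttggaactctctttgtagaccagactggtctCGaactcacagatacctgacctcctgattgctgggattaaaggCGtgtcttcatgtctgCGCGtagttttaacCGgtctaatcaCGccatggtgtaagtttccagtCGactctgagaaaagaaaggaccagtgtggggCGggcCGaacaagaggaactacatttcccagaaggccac

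These stretches hold 27 CpG at Ncl, 30 at Nop2, 13 at Polr1a and 10 at Polr1b, against a median of 6 over all genes' windows. Nop56, with a peak over its window in both lists, has 25, and Nop58, also with both, has 11. Nolc1, with a peak in HEPA1-6 only, has 14. Polr1b, with neither, has the lowest count of the 7 genes with 1 listed start. Whether the count goes with the peaks was not tested. RefSeq promoter windows (250 bases before to 50 after a start) were matched for 8 genes, with no entry for Npm1 and Fbl. Over the whole window, GC content was 69.3% at Ncl, 66.0% at Nop56, 66.0% at Nop2, 57.0% at Nolc1, 52.7% at Polr1b, 48.7% at Polr1a and 45.3% at Nop58, against a median of 52.7% over 32851 windows of all genes. Nop58, with a peak at its start in both lists, had the lowest value of the 7, and Ncl, Nop56 and Nop2, also with both, had the highest. Whether GC content goes with the peaks was not tested. Ubtf has 6 listed starts with windows of 46.3 to 82.3% GC, all under a peak in both lists.

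Short motifs known from promoters of growth-related genes were searched on both strands of the windows. The E-box CACGTG, bound by Myc and related factors, was found at Nop2 and at none of the other 7 genes, and in 7.15% of all windows. The ETS-type motif CCGGAAG (or CTTCCGG) was found at Nop2 and Nolc1 and in 8.86% of all windows. TCGCGA was found at Nop58 and in 2.50% of all windows. GGGG (or CCCC) was in every window of these 8 genes and in 86.4% of all windows. A match is a run of letters and no proof of binding, and no match says nothing of the factor.

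Ncl codes for nucleolin, an abundant nucleolar RNA-binding protein. It lies on the minus strand of chromosome 1 (86344719 to 86359455) and had the highest-scoring peak of the 10 genes in each list. In HEPA1-6 3 peaks were listed: 86352953 to 86360923 over the start (7971 bp, score 254, rank 0.437%), 86346034 to 86352031 in the body (score 122, rank 1.72%) and 86342200 to 86344719 just past the end (score 24, rank 39.4%). The liver list also had 3, each ending on the same base as its HEPA1-6 partner: 86353324 to 86360923 (score 106, rank 1.87%), 86350383 to 86352031 (score 146, rank 1.14%) and 86343893 to 86344719 (score 18, rank 65.8%). The order of the upper pair was turned: the peak over the start ranked first in HEPA1-6 and the body peak ranked first in the liver list. The body peak covered the nested snoRNA gene Snora75 in both lists, and the peak over the start covered Snord82. It also reached into the neighbouring long noncoding RNA gene C130036L24Rik, so its reads cannot be given to Ncl alone.

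Npm1 codes for nucleophosmin, a nucleolar chaperone of histones and ribosomal proteins. On chromosome 11 (33152498 to 33164142) it held a single peak per list, 33154906 to 33164456 in HEPA1-6 (9551 bp, score 151, rank 1.16%) and 33156479 to 33164456 in the liver list (7978 bp, score 78, rank 3.36%). Both ended on the same base, 314 bp beyond the upper gene boundary, and touched no other gene. Peaks as wide or wider made up 2.21% of the HEPA1-6 list and 1.17% of the liver list.

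Nolc1 codes for Nopp140, a phosphoprotein that associates with snoRNPs in nucleoli and Cajal bodies. Its best peak stood at 9.43% of the HEPA1-6 list and at 3.27% of the liver list, whereas at the other 9 genes the HEPA1-6 percent was the smaller. On chromosome 19 (46075847 to 46085543) HEPA1-6 had a peak over the start (46075411 to 46077097, score 22, rank 45.2%) and a wide one over the rest and past the end (46078762 to 46088116, 9355 bp, score 50, rank 9.43%). The liver list had none at the start and 4 narrow peaks inside the wide interval, with scores of 24, 18, 79 and 20 from the gene's start to beyond its end. The third of these, 46083734 to 46084677, ranked at 3.27% and the other 3 between 41.7% and 65.8%.

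The box C/D genes differed from each other. Fbl codes for fibrillarin, the methyltransferase of the particle, and lies on chromosome 7 (28168893 to 28179269). A HEPA1-6 peak of 13140 bp (28168932 to 28182071, score 73, rank 4.37%) covered 99.6% of its body and ran into the neighbour Dyrk1b. The liver list had 3 peaks in the same interval, with scores of 40, 42 and 37 and ranks between 12.8% and 17.2%. The first of them, 28168932 to 28170773, carried the minus strand, and the other peaks at Fbl in both lists the plus strand.

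Nop56 is the shortest of the 10 genes (4947 bp, chromosome 2, 130274367 to 130279313) and was covered completely in both lists. The HEPA1-6 peak was 130273440 to 130282326 (8887 bp, score 181, rank 0.844%) and the liver-list peak 130273668 to 130282326 (8659 bp, score 59, rank 6.03%). Both also covered part of Idh3b, whose annotation overlaps the end of Nop56. The HEPA1-6 peak was given the plus strand, which is that of Nop56, and the liver-list peak the minus strand.

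Nop58 is longer (26550 bp, chromosome 1, 59684961 to 59711510) and showed a broken pattern. HEPA1-6 had 6 peaks, with scores of 86, 15, 48, 22, 17 and 44 from start to end, and the liver list 3, with scores of 37, 19 and 19. The peak at the start, 59684967 to 59686326, had the same 2 edges in both lists and was the best-ranked at this gene in each (3.30% and 17.2%). It was the sole pair with both edges equal among the 22 overlapping pairs at these genes.

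Nop2 codes for a methyltransferase of 28S ribosomal RNA. On chromosome 6 (125131883 to 125144753) it lay entirely within a HEPA1-6 peak of 28598 bp (125117166 to 125145763, score 56, rank 7.50%), one of the widest of that list, since 0.0383% of peaks were as wide or wider. This interval began 14717 bp before Nop2, over Chd4, and ended in Iffo1, so the share that belongs to Nop2 is unknown. The liver list had separate peaks over the start (125131048 to 125132556, score 31, rank 25.5%) and over the rest (125133909 to 125145584, score 30, rank 27.2%). The former touched no other gene, but Chd4 ended within 1 kb of it.

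Ubtf codes for the upstream binding factor that opens ribosomal DNA for RNA polymerase I. On the minus strand of chromosome 11 (102304560 to 102323649), 1 peak per list filled most of the gene. It ran from 102305221 to 102321217 in HEPA1-6 (15997 bp, score 157, rank 1.07%) and from 102305472 to 102321217 in the liver list (15746 bp, score 76, rank 3.51%). Of the bases in either peak 98.4% were shared, the highest share of the 10 genes. The first 2432 bp of the annotated gene lay outside both peaks.

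Polr1a and Polr1b code for the 2 large catalytic subunits of RNA polymerase I. Polr1a is the longest of the 10 genes (70383 bp, chromosome 6, 71909053 to 71979435). HEPA1-6 had 10 peaks along it, with scores from 13 to 37, the highest at its end (71976370 to 71981975, rank 17.4%). One of score 20 lay over its start. It began 1489 bp before Polr1a and also lay over the neighbour Ptcd3, so it cannot be given to Polr1a alone. The liver list had 3, with scores of 14, 20 and 19, all in the last part of the gene or beyond it, and the nearest lay 55780 bp from the RefSeq start. At Polr1b (27091 bp, chromosome 2, 129100970 to 129128060) HEPA1-6 had 4 peaks with scores of 32, 28, 25 and 17. The liver list had a single peak of 239 bp (129109705 to 129109943, score 16, rank 77.8%) inside the second of these. No peak of either list lay within 1 kb of the start or the end of Polr1b. The nearest to its start was 3397 bp from the gene boundary and 3371 bp from the start listed with its promoter window.

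**Figure D2:**
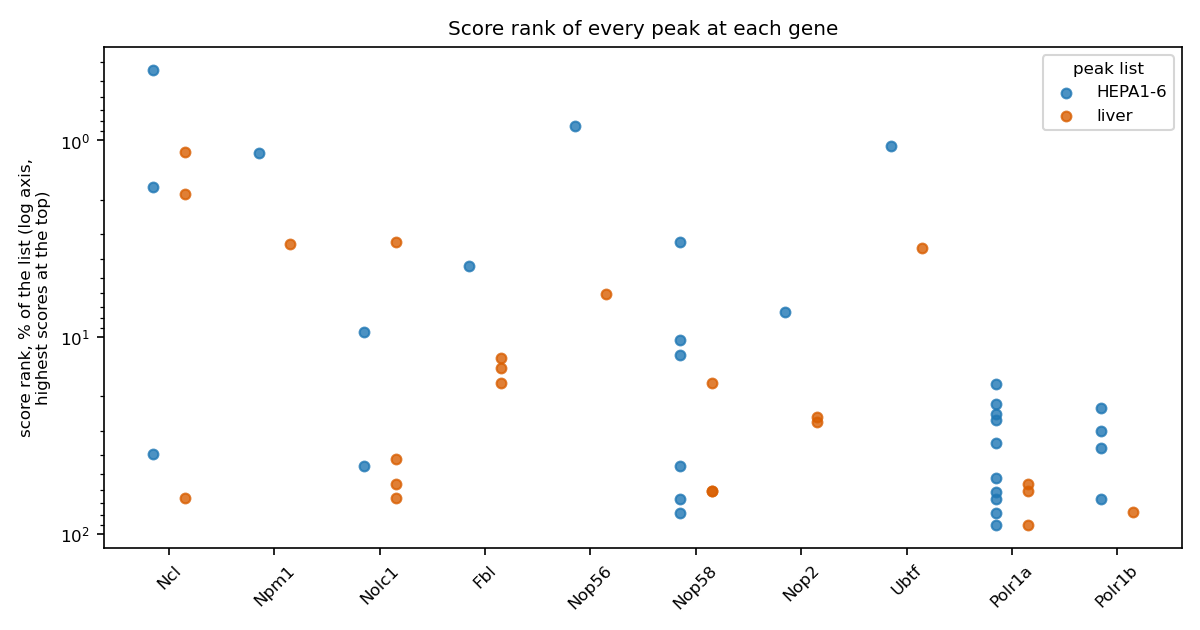
Score rank of every peak at each gene, as a percent of its own list on a log axis with the highest scores at the top, for HEPA1-6 (blue) and the liver list (orange). Ranks from lists of different length show no change between sources; Ncl reaches 0.437% and 1.14%, while the best peaks of Polr1b stand at 23.1% and 77.8%.

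Set side by side, 6 genes had a HEPA1-6 peak in the top 5% of scores (Ncl, Nop56, Ubtf, Npm1, Nop58 and Fbl) and 4 a liver-list one (Ncl, Nolc1, Npm1 and Ubtf). Over all protein-coding genes these shares were 7.14% and 2.74%. Over the 10 genes the best ranks in both lists had a Spearman's rho of 0.68, given as a description: the genes share the libraries, and longer genes offer more places for a peak.

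The share of the gene body under peaks had a median of 83.3% in HEPA1-6 and 57.0% in the liver list, against 15.4% and 5.84% over all protein-coding genes with a peak. At least 50% of the body was covered in 7 of the 10 genes in HEPA1-6 and in 6 in the liver list, against 9.31% and 3.41% of all protein-coding genes. The body of Nop56 was covered to 100% in both lists, that of Ubtf to 83.8% and 82.5%, and that of Nop2 to 100% and 89.5%. Coverage was lower in the liver list at Ncl (84.8% and 52.8%), Nolc1 (82.8% and 37.9%), Fbl (99.6% and 61.2%) and Npm1 (79.3% and 65.8%). The 3 longest genes had the least: 36.4% and 15.1% at Nop58, 25.9% and 4.14% at Polr1a, and 17.8% and 0.882% at Polr1b. Coverage was higher in HEPA1-6 at 9 genes and equal at Nop56. The HEPA1-6 coverage of Nop56, Nop2 and Fbl came from 1 peak each that also lay over another protein-coding gene. In the liver list this held for the peak at Nop56 and for 1 of the peaks at Nop2 and at Fbl. How much of such peaks belongs to these 3 genes is unknown.

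**Figure D3:**
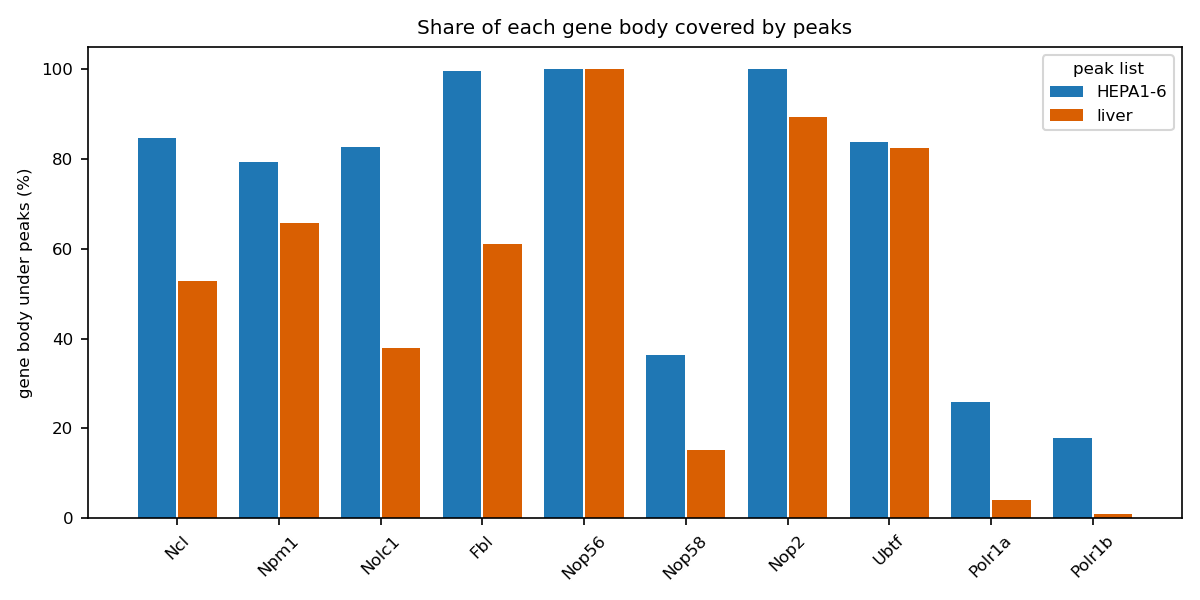
Share of each gene body under S9.6 peaks in percent, for HEPA1-6 (blue) and the liver list (orange), 1 list per source and so without error bars. The bars of Nop56, Nop2 and Ubtf stand above 80% in both lists, and those of Polr1a and Polr1b at 25.9% or less. Peaks at Nop56, Nop2 and Fbl also lie over neighbouring genes.

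The overlap of the lists was not symmetric, and the lists differ in length (28717 and 14908 peaks). Each of the 22 liver-list peaks overlapped a HEPA1-6 peak, against 88.9% of liver-list peaks at protein-coding genes in general, and within the gene regions every base under a liver-list peak was also under a HEPA1-6 peak. Of the 30 HEPA1-6 peaks, 15 overlapped a liver-list peak, against 31.8% at protein-coding genes in general. The other 15 lay at Polr1a (8), Polr1b (3), Nop58 (3) and Nolc1 (1). With HEPA1-6 shortened to its 14908 highest-scoring peaks, 22 lay at these genes, and 15 of them overlapped a liver-list peak. The share at protein-coding genes in general was not computed for the shortened list. The bases shared by both lists were 96.7% of those in either at Nop56 and 83.5% at Npm1, but 16.3% at Polr1a and 4.97% at Polr1b. With an overlap of 50% of both peaks required, 6 peaks of each list were shared, at Ncl, Npm1, Nop56, Nop58 and Ubtf.

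Every peak at these genes had a strand in the lists. Of 28 HEPA1-6 peaks at the 8 genes with a RefSeq strand, all 28 were on the strand of the gene. In the liver list 17 of 18 were, the exception being the peak at Nop56. Over all protein-coding genes with a RefSeq strand, 87.3% of stranded HEPA1-6 peaks and 83.8% of stranded liver-list peaks at a gene were on its strand. Of the 22 overlapping pairs at the 10 genes, 2 were on opposite strands (Fbl and Nop56), against 1543 of 10990 pairs with a strand in both lists overall. How the submitters gave a strand to a peak is not stated in the sources used here.

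Starts and ends were compared for the same 8 genes, within 1 kb of the outermost gene boundary. A HEPA1-6 peak reached the start of 6 (all but Ubtf and Polr1b), against 24.5% of protein-coding genes with a known strand. A liver-list peak reached the start of 4 (Ncl, Nop56, Nop58 and Nop2), against 16.7%. Ubtf is missed only at its outermost boundary, since its listed starts lie further in and were under a peak in both lists. The ends of 7 genes, all but Polr1b, held a peak in each list, against 23.8% and 11.8%. By the midpoint of the peak in place of its whole interval, the end held a peak at 1 gene in each list, and the start at 4 genes in HEPA1-6 and 2 in the liver list.

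Inside Ncl, Nop56 and Nop58 the RefSeq table lists 11 snoRNA genes. A HEPA1-6 peak lay over 8 and a liver-list peak over 7, against 31.5% and 19.3% of the 461 snoRNA genes nested in protein-coding genes. Both snoRNA genes of Ncl and all 5 of Nop56, Snord110 and Snord57 among them, were under a peak in both lists. The 5 of Nop56 lie under 1 peak per list that covers the whole gene, so they are not separate cases. The 461 were not limited to those in genes with a peak, so these counts partly restate the coverage of the host genes. Of the 4 in Nop58, Snord70 was under a HEPA1-6 peak, whose liver-list partner ended before it, and Snord11 and the other 2 were under none.

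Peak edges recurred between the lists. Of the 22 overlapping pairs at these genes, 11 had a start or an end on the same base, against 46.1% of all 11455 overlapping pairs. In DNA-RNA immunoprecipitation the genome is often cut with restriction enzymes first, so the edges were set against the sites of EcoRI, HindIII, XbaI, BsrGI and SspI, a comparison chosen after the edges were seen. The labels do not name the enzymes. Within the RefSeq promoter windows, the only sequence at hand, 53.6% of 830 HEPA1-6 edges and 42.0% of 766 liver-list edges lay exactly at the cut of one of these 5 enzymes, against 0.116% of all window positions. Widths, covered shares and shared bases are given for the intervals as listed. Whether cut sites limit them was not tested. Among the 10 genes, edges at Fbl and Nop58 fell inside a promoter window, that of Fbl in the window of the neighbouring gene Gm31024. Both are shown (GRCm38.p6), with the EcoRI site in capitals. The peaks of both lists begin at the first base after its G.
Fbl, chr7:28168917-28168946, plus strand: cagtagggtgggctGAATTCatgacctgaa
Nop58, chr1:59684952-59684981, plus strand: gacgttacttcccaGAATTCttagagaagg

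To set the 10 genes beside the rest of their pathway, a list of 93 other ribosome biogenesis genes was drawn up, of which 90 matched the RefSeq table by symbol. A HEPA1-6 peak was found at 85 (94.4%) and a liver-list peak at 59 (65.6%), against 42.0% and 29.7% of all protein-coding genes. All 59 also held a HEPA1-6 peak, as did 6077 of the 6491 protein-coding genes with a liver-list peak, and 26 held a HEPA1-6 peak only. With peaks left out that lie within 1 kb of another protein-coding gene, 65 kept a HEPA1-6 peak and 45 a liver-list peak. All-gene shares were not computed with that filter. By role, assembly factors of the 60S subunit held a liver-list peak in 31 of 37 cases, those of the 40S subunit in 18 of 32, other snoRNP proteins in 4 of 6, and other subunits and factors of RNA polymerase I in 6 of 15. The HEPA1-6 counts were 35, 30, 6 and 14. The RNA polymerase I class also holds Polr2e, Polr2f, Polr2h, Polr2k, Polr2l and Tbp, which other RNA polymerases use too. Its 6 genes with a liver-list peak were Polr1c, Polr1d, Polr2f, Polr2k, Polr2l and Taf1a, named after their values were seen. The difference between roles was not tested. When HEPA1-6 was shortened to its 14908 highest-scoring peaks, 74 of the 90 genes held one.

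The best scores in HEPA1-6 belonged to Utp4 (370), a small subunit processome protein, Ddx21 (159), a nucleolar RNA helicase, and Wdr43 (155), another processome protein. In the liver list they belonged to Utp4 (174), Polr1d (98), a subunit shared by RNA polymerases I and III, and Ddx21 (73). Peaks covered 56.9% and 22.6% of the body of Ddx21 and 64.3% and 36.6% of that of Polr1d. They covered less of Utp4 (18.7% and 10.3%) and Wdr43 (22.6% and 11.6%). Whether the best peaks of these genes also reach a neighbouring gene is not given here. Genes without a peak in either list were Taf1b, Utp14a, Imp3, Gnl3l and Nop16, named after their values were seen.

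**Figure D4:**
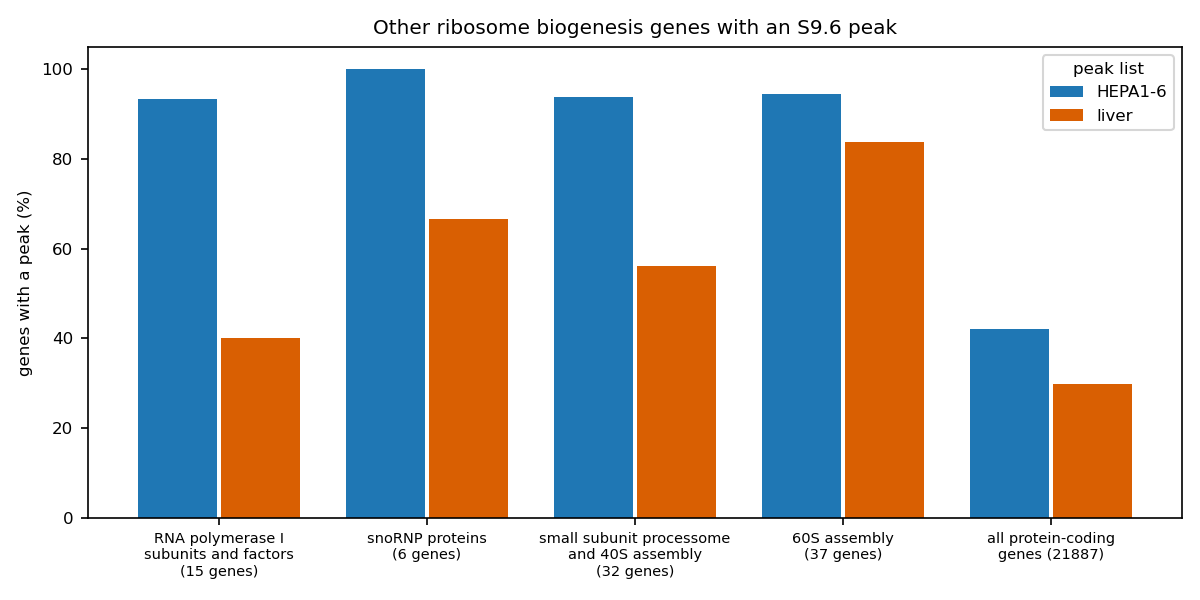
Share of other ribosome biogenesis genes with an S9.6 peak, by role, in percent, for HEPA1-6 (blue) and the liver list (orange), with all 21887 protein-coding genes at the right. HEPA1-6 shares lie between 93.3% and 100% in every role, and liver-list shares from 6 of 15 genes up to 83.8%.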

How the data were processed

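The authors deposited 1 list of peaks per source, with position, name, score and strand. Names of the deposited peaks read merged IP against IN. The submitters' processing notes name build mm10 and CASAVA 1.8.2, cutadapt, Bowtie2, bedtools, SAMtools and MACS2, with no role, setting or threshold. The authors' score is a whole number from 10 up, of unstated scale, and was used only to rank peaks within a list (ties at their mean rank). Genes, promoter windows and snoRNA genes came from RefSeq tables of GRCm38.p6, the same build, on chromosomes 1 to 19, X and Y. Gene strand was taken from the promoter table. Coordinates are 1-based. Overlap means 1 bp or more. Python 3.11.15, pandas 2.3.3 and numpy 2.4.6 were used, with interval code tested on simulated data.

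The genes, the ribosome biogenesis list and the hepatocyte and proliferation genes were chosen with earlier results of these data known. All 10 genes are named whatever their values. Of the other list, the 3 with the highest-scoring peak in each source are named. Further genes of it were named for their role or after their values were seen. Polr1f, Polr1g and Polr1h did not match the table by symbol or synonym. Alternatives changed the flank, the peaks kept, the interval, the window and the overlap.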

Additional observations from a re-analysis of the deposited data

How the results depend on the processing

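Across 66 alternatives for 15 counts and medians, 58 stayed within 1.5 times the reported value and 8 moved further. All 10 genes kept a peak in both lists with no flank, a flank of 5 kb, peak midpoints and equal numbers of peaks. With the higher-scoring 50% of each list, liver-list peaks at the genes fell to 13 and their median best rank moved to 4.77%, as Polr1a and Polr1b drop out by construction. The ranks under this cut are those of the full list. With equal numbers of peaks, ranks were instead taken anew in the shortened list. The HEPA1-6 median best rank was then 7.39%, since the list is shorter. By midpoint, starts with a liver-list peak numbered 2, and ends 1 in each list. An overlap of 50% of both peaks left 6 shared peaks in each list. No paired analysis was possible because each source has 1 pooled list, so leaving out a replicate was not run either. The unknown depth limits every statement that a gene or boundary has no peak.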
